A study of Mus musculus with 18 samples.

Results

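The 77 genes described here carry a numbered Mrpl or Mrps symbol, and all but Mrps36 encode mitochondrial ribosomal proteins of the mouse. They were chosen by symbol alone (Mrpl or Mrps, a number and at most 1 further letter), and the rule found 48 Mrpl and 29 Mrps genes among 25628 genes in the count table of a first experiment and 26903 in that of a second. All 77 passed the filter on low counts in both experiments, where 13811 and 15051 genes were tested. The cells were a mouse erythroleukaemia line with a Spi1 transgene, Spi1 being the transcription factor also called PU.1, kept in medium with erythropoietin. A 48 h course of doxycycline induced a short hairpin that targets Spi1. A 6 h exposure to 3 µM entinostat, which inhibits class I histone deacetylases, was set against DMSO.

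The 18 polyA RNA libraries formed 6 groups of 3 biological replicates. In experiment 1, cultures with doxycycline were set against cultures without it. In experiment 2 the groups were doxycycline plus entinostat, entinostat alone, doxycycline plus DMSO, and DMSO alone. All groups come from 1 leukaemic line, and no group with doxycycline and a control hairpin was among the samples, so an effect of doxycycline itself and one of the hairpin cannot be told apart.

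The mitochondrial ribosome translates the few messenger RNAs that mitochondrial DNA encodes, all of them for subunits of the respiratory chain and ATP synthase. Its ribosomal RNAs are made inside the organelle, but every one of its proteins is encoded in the nucleus, made in the cytosol and imported. Part of these proteins descend from bacterial ribosomal proteins and part were added in the mitochondrial lineage. Nuclear genes for mitochondria are known targets of the ETS factor GABP and of NRF1 and YY1, and erythroid cells depend on mitochondria for haem and iron-sulphur cluster synthesis.

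By the current structural assignment, 50 of the proteins sit in the large subunit and 26 in the small one, 46 have a bacterial counterpart and 30 do not. Mrps36 is counted in neither, since its product is now known as a subunit of the α-ketoglutarate dehydrogenase complex (KGD4). The symbols do not always follow the subunit: Mrps30 and Mrps18a encode large-subunit proteins. Mrps18a, Mrps18b and Mrps18c are 3 relatives of a single bacterial protein, S18. The genes lie on 17 chromosomes, and their principal transcripts have a median length of 1316 bases (418 to 7300).

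Promoters of 68 of the 77 genes were found in the RefSeq table (mouse build GRCm38.p6; 250 bases before to 50 after the start). The letters CCGGAAG, a core of ETS sites of the GABP type, stood on either strand in 24 of them, 35.3%, against 19.5% of the 9211 promoters of other tested genes and 12.3% of 16452 promoters of all other protein-coding genes. A match describes the sequence and does not show binding. To show what such a promoter looks like, 4 windows of 200 bases upstream of the start are printed 5′ to 3′ on the gene's own strand, with CCGGAAG or its reverse complement in capitals. They were taken among the genes named below whose window holds little exon sequence: in GENCODE M21 the windows of Mrpl48 and Mrpl58 hold 0 exon bases, that of Mrpl22 holds 3 and that of Mrps18a 18, and the Mrpl48 window lies in an intron of a longer transcript. The windows are those of Mrpl48 at chr7:100583131-100583330 (minus strand), Mrpl22 at chr11:58171464-58171663 (plus), Mrps18a at chr17:46110804-46111003 (plus) and Mrpl58 at chr11:115403552-115403751 (plus).
Mrpl48: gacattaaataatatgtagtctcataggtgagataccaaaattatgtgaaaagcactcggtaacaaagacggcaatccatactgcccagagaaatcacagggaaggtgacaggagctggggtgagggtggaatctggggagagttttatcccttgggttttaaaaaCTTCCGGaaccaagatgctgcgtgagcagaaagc
Mrpl22: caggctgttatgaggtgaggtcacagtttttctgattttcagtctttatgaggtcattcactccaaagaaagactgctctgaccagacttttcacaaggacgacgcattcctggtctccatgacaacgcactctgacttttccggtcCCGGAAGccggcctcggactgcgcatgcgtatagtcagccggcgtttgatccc
Mrps18a: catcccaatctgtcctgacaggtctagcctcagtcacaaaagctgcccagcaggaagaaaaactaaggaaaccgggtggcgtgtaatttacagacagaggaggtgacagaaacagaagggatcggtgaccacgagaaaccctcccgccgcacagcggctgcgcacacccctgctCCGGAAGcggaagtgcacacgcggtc
Mrpl58: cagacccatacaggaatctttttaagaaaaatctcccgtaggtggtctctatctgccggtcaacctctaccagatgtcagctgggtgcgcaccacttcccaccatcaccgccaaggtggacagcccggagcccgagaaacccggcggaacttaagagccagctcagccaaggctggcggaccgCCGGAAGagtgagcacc

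All 77 genes were expressed in cells given DMSO alone, over a wide range. Levels are CPM, counts scaled to a common library size, so they are shares of the RNA in a library; in bulk RNA, fewer cells with a transcript and less of it per cell cannot be told apart. Mrpl20 was the most abundant at 328 CPM, followed by Mrpl12 at 276.5 CPM and Mrpl30 at 238 CPM. Mrpl33 was the least abundant at 8.17 CPM, with Mrps18c at 11.0 CPM and Mrps6 at 23.7 CPM above it, and the median gene was Mrps35 at 89.4 CPM. Per kilobase of principal transcript, Mrpl20 was again highest with 429 CPM per kb, ahead of Mrpl30 with 246 and Mrps21 with 234, while Mrps25 was lowest with 9.59. The gene for the peptidyl-tRNA hydrolase Mrpl58 (ICT1) was next to lowest with 11.4 CPM per kb. The order of the genes was similar in the untreated cells of experiment 1 (Pearson r = 0.843 and Spearman rho = 0.916 over log2 means of 77 genes, which are not independent replicates). Mrpl23 was the clearest exception, with 2.37 CPM there and 28.2 CPM in DMSO alone; the experiments were counted in separate tables and the difference was not tested.

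Library totals were 82674499 to 113804574 counts in experiment 1 and 43116322 to 48855905 counts in experiment 2. Spi1 was lower in every library with doxycycline than in its matched group without it: 125 to 133 against 379 to 459 CPM in experiment 1, 59.5 to 126 against 200 to 259 CPM in DMSO, and 98.5 to 162 against 221 to 482 CPM in entinostat. Erythroid markers summed to 2849 to 6201 CPM in the libraries, with Tfrc alone at 1690 to 4914 CPM. Gata1 was at 122.6 to 354.3 CPM, and Slc4a1 was as low as 1.2 CPM. Markers of T cells, B cells and neutrophils summed to at most 0.496 CPM, and those of stroma and endothelium to at most 2.91 CPM. In experiment 2, replicate 1 of the entinostat-alone group and replicate 1 of the doxycycline plus DMSO group stood apart, with root mean square deviations from their group mean of 0.506 and 0.522 (log2, all genes) against 0.220 to 0.345 in the other 10 libraries. Both carried Spi1 levels in the direction of their label, but each had the lowest Spi1 of its group. The entinostat-alone library had 221 CPM of Spi1 against 480 and 482 CPM in the others of its group. The doxycycline plus DMSO library had 59.5 CPM against 126 and 105 CPM. Ehf was at 25.2 CPM in that entinostat-alone library, the lowest of the 25.2 to 44.8 CPM in all libraries with entinostat. Those with DMSO had 0.123 to 0.603 CPM of Ehf.

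Those 2 libraries held more RNA of the mitochondrial ribosomal protein genes than the other libraries of their groups. The 77 genes together took 8775, 8116 and 8419 CPM with doxycycline plus entinostat and 7905, 4496 and 4843 CPM with entinostat alone. They took 11330, 6514 and 6466 CPM with doxycycline plus DMSO, and 8141, 6899 and 7670 CPM with DMSO alone. In the doxycycline plus DMSO group 72 of the 77 genes were highest in replicate 1, and in the entinostat-alone group 69 were. Short transcripts stood higher in both libraries (Spearman rho of deviation with transcript length -0.507 and -0.567 over all genes tested, as a description). Cytosolic ribosomal protein genes moved with them: they summed to 169000 CPM in replicate 1 against 76520 and 74540 CPM in the other doxycycline plus DMSO libraries, and to 158100 CPM against 67920 and 75160 CPM in the entinostat-alone group. In the doxycycline plus entinostat group all 3 libraries were at that high level, with 172400, 217600 and 181300 CPM, and DMSO alone had 114100, 80860 and 100600 CPM. The part of this difference between libraries in the results was not tested, so the counts of experiment 2 are given for all 12 libraries and again without the 2 libraries.

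**Figure D1:**
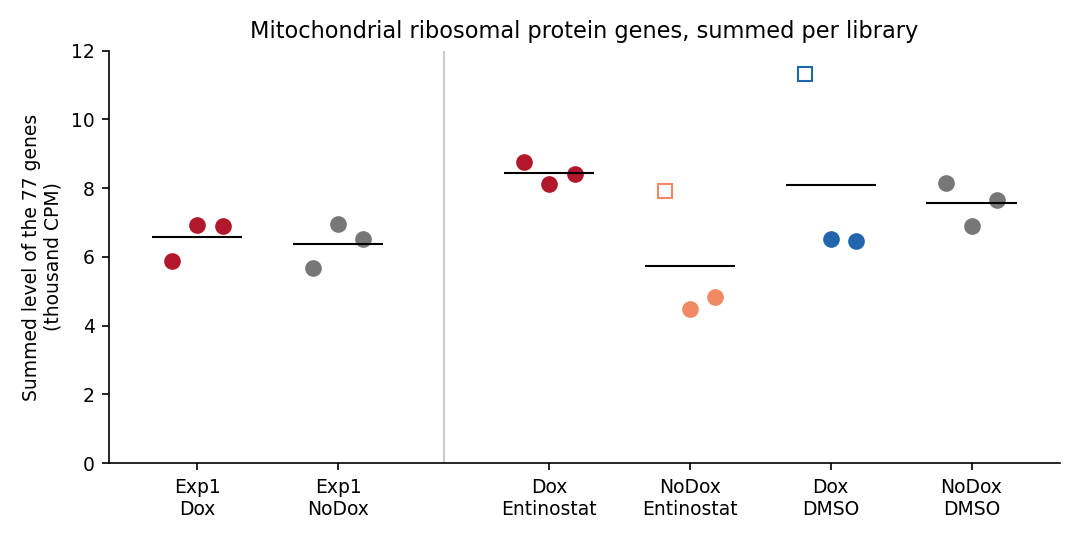
Summed level of the 77 mitochondrial ribosomal protein genes in each library (CPM, in units of 1000, vertical axis) by group (horizontal axis). Points are libraries, lines group means, and open squares the 2 libraries that stood apart: 11330 CPM in the doxycycline plus DMSO group and 7905 CPM in the entinostat-alone group, each the highest of its group.

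Induction of the Spi1 hairpin in experiment 1 moved the mitochondrial ribosomal protein genes little. The summed level was 6571 ± 590 CPM with doxycycline and 6385 ± 650 CPM without it (SD, n = 3 each). Across the 77 genes the log2 fold change had a median of 0.09 and ran from -0.74 to 0.39; the median of all genes tested was 0.02. No member passed an adjusted p of 0.05 in edgeR's quasi-likelihood test with Benjamini-Hochberg adjustment, where 5.26% of all genes rose and 8.36% fell. At an unadjusted p under 0.05, 2 rose and 3 fell; DESeq2 called Mrps15 higher and Mrpl36 and Mrps33 lower, and limma-voom called none.

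Replicates with the same number deviated together in experiment 1. Replicate 1 was the low one in both groups, with 5889 CPM with doxycycline and 5678 CPM without it for the 77 genes together. With the replicate number as a block, 35 members rose and 9 fell, 45.5% and 11.7%, where 26.1% and 24.7% of all genes did. The 9 that fell were Mrpl17, Mrpl21, Mrpl36, Mrpl43, Mrpl50, Mrps18a, Mrps25, Mrps33 and Mrps6. The changes were small, with the largest fall at -0.73 and the largest rise at 0.40 on the log2 scale.

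Mrps33, a mitochondria-specific protein of the small subunit, fell furthest in that paired test; it, Mrpl36, Mrpl21 and Mrps24 were singled out after their values were seen. It had 4.74, 6.79 and 6.02 CPM with doxycycline against 7.59, 11.8 and 9.84 CPM without it, no library with doxycycline reaching the lowest one without. The paired log2 fold change was -0.73 ± 0.06 (SE), with an adjusted p of 1.76e-05 in edgeR; without the block it was -0.74 ± 0.21 with an adjusted p of 0.0698. Mrpl36, the small zinc-binding protein of the large subunit, had 125, 176 and 170 CPM with doxycycline and 195, 255 and 226 CPM without it, again with no overlap. Its paired change was -0.53 ± 0.05 with an adjusted p of 1.48e-05, and the unpaired adjusted p was 0.0971. Mrpl21 had 39.4, 53.7 and 46.3 CPM against 54.9, 69.0 and 65.4 CPM, a paired change of -0.45 ± 0.04 with an adjusted p of 3.62e-05. Mrps24, in the small subunit, had the largest rise, with 45.1, 67.0 and 58.4 CPM with doxycycline and 32.1, 51.4 and 46.8 CPM without it. Those ranges overlapped, while each replicate was higher with doxycycline than its same-numbered partner, and the paired change was 0.40 ± 0.05 with an adjusted p of 0.000107.

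Of the 12 members picked for their roles, none was called in experiment 1 without the block and 5 were in the paired fit. Mrpl12, the protein of the large subunit's flexible stalk that recruits translation factors, had 208, 248 and 256 CPM with doxycycline against 217, 266 and 260 CPM without it, a change of -0.06 ± 0.12 (paired adjusted p = 0.146 in edgeR). Mrps18b changed by 0.00 ± 0.09 and Mrpl41 by 0.01 ± 0.19. Mrps18a, by contrast, was called lower in the paired fit at -0.16 ± 0.04 with an adjusted p of 0.00708. Mrps30, Mrps36, Mrps28 and Mrpl58 were called higher there, by 0.16, 0.29, 0.28 and 0.17. Over all 77 genes, levels with doxycycline lay above every library without it for 7 genes and below for 4, where 15.3% and 16.8% of all genes did so. Leaving out replicate 1 of the group without doxycycline left 1 unpaired call, a fall; no other omission gave any.

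In the DMSO arm of experiment 2 the same treatment gave no call with all libraries. The summed level was 8103 ± 2794 CPM with doxycycline plus DMSO and 7570 ± 627 CPM with DMSO alone. The median log2 fold change of the members was 0.10, between -0.52 and 0.74, with a median of 0.05 over all genes. None rose or fell where 3.77% and 5.53% of all genes did, none had an unadjusted p under 0.05 in edgeR, and DESeq2 and limma-voom made no call either.

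When the 2 libraries that stood apart were left out, 16 of the 77 genes fell and none rose, against 13.9% and 17.4% of all genes; the members' median became -0.19, and that of all genes -0.00. The 16 are 20.8% of the members. They were the 7 genes Mrpl17, Mrpl21, Mrpl50, Mrps18a, Mrps25, Mrps33 and Mrps6, which the paired fit of experiment 1 also called lower, and Mrpl1, Mrpl11, Mrpl13, Mrpl16, Mrpl20, Mrpl24, Mrpl42, Mrpl48 and Mrps34. The 7 shared genes are 77.8% of the 9 in experiment 1 and 43.8% of the 16 here; over all genes tested in both experiments, the falls shared by these fits were 48.4% of those in experiment 1 and 80.8% of those here. Leaving out replicate 1 of the doxycycline plus DMSO group alone gave 2 falls. Replicate 1 of DMSO alone was kept in these fits, though it too was the highest of its group. The 77 genes took 8141 CPM in it against 6899 and 7670 CPM, and 59 of them were above both other libraries. The part of this in the falls was not tested.

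Mrps33 had the lowest log2 fold change of the members in this arm as well. It had 41.9, 15.4 and 16.6 CPM with doxycycline plus DMSO and 39.4, 29.0 and 37.8 CPM with DMSO alone, so that replicate 1 lay above all controls and the other libraries below them. Its log2 fold change was -0.52 ± 0.38 with all libraries (edgeR adjusted p = 0.523) and -1.15 ± 0.14 without the 2 (adjusted p = 4.8e-05). Mrpl21 showed the same split, with 126, 61.6 and 55.0 CPM against 116, 93.7 and 111 CPM. It changed by -0.41 ± 0.31 with all libraries (edgeR adjusted p = 0.557) and by -0.88 ± 0.14 without the 2 (adjusted p = 0.000323). Mrpl11, the protein at the base of the stalk, had 165, 82.6 and 72.6 CPM against 111, 88.4 and 102 CPM; it changed by 0.09 ± 0.31 with all libraries (edgeR adjusted p = 0.931) and by -0.37 ± 0.12 without the 2 (adjusted p = 0.029). Across the 77 genes, the changes in DMSO and in experiment 1, which share no library, had a Pearson r of 0.71 with all libraries and of 0.711 without the 2, as a description over genes that are not independent.

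**Figure D2:**
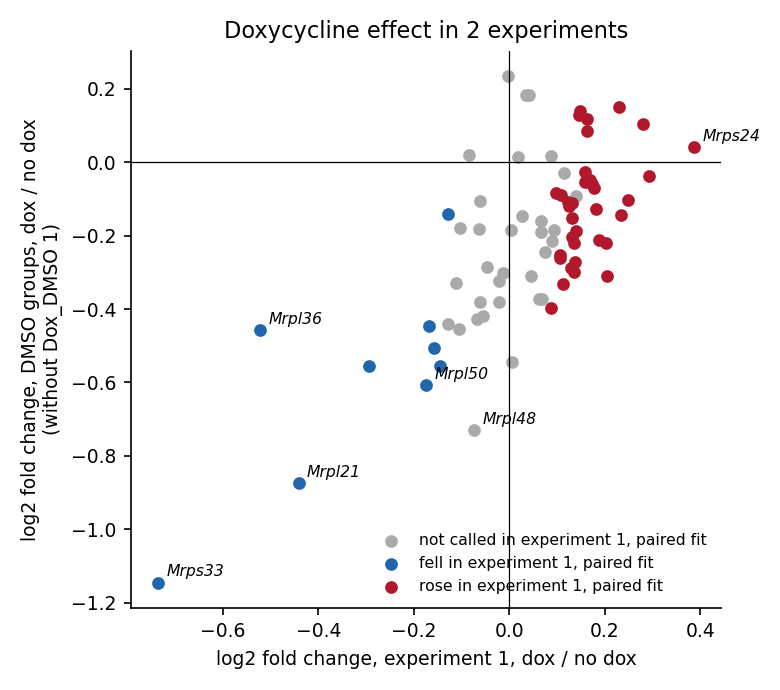
Log2 fold change with doxycycline of each of the 77 genes in experiment 1 (horizontal axis) and in the DMSO arm of experiment 2 without the 2 libraries that stood apart (vertical axis). Colours give the call in the paired fit of experiment 1, while the horizontal values come from the fit without the block. Mrps33 lies furthest to the lower left, at -0.74 and -1.15.

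Entinostat without doxycycline lowered a share of the mitochondrial ribosomal protein genes and raised none. Of the 77 genes 22 fell, 28.6%, where 16.9% of all genes fell; none rose, where 30.3% of all genes did. The median log2 fold change was -0.39 for the members, between -1.34 and 0.65, and 0.07 for all genes. For the rises, edgeR gave 0 members at an unadjusted p under 0.05, and DESeq2 and limma-voom called none. Leaving out the 2 libraries, 65 members fell and none rose (27.7% and 36.2% of all genes), with a members' median of -0.63. That fit too kept replicate 1 of DMSO alone, the highest of its group.

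Mrps18b, a small-subunit relative of bacterial S18 on chromosome 17 (mm10, 35910379 to 35916389, minus strand), had the largest fall. It had 43.8, 35.7 and 37.2 CPM with entinostat alone and 103.7, 93.2 and 97.8 CPM with DMSO alone, far apart and with little spread in either group. Mrps18b shares 638 exon bases with Gm16279 on the opposite strand, and the libraries do not tell strands apart. The log2 fold change of Mrps18b was -1.34 ± 0.16 with an edgeR adjusted p of 2.46e-05, and the call held whichever library was left out. Its relatives did not share that: Mrps18a changed by -0.31 ± 0.23 (adjusted p = 0.296) and Mrps18c by -0.02 ± 0.33 (adjusted p = 0.971), though Mrps18a fell by 0.57 without the 2 libraries (adjusted p = 0.00023).

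Mrpl12 (chromosome 11, 120484613 to 120489065, plus strand) was among the most abundant members before treatment and fell next furthest. It had 173, 77.5 and 88.3 CPM with entinostat alone and 311, 250.3 and 269 CPM with DMSO alone. The groups did not overlap, with replicate 1 the highest of each, and the change was -1.29 ± 0.33 (adjusted p = 0.00647). Mrps34, which mice need for a stable small subunit, had 24.1, 13.5 and 15.5 CPM against 39.3, 32.5 and 40.1 CPM, a change of -1.07 ± 0.26 (adjusted p = 0.00477). Its exons overlap those of Mapk8ip3 on the opposite strand and of Nme3, and the libraries do not tell strands apart. Mrpl12 and Mrps30 also share exon bases with opposite-strand genes, Gm16755 (200 bases) and B430218F22Rik (623 bases). Mrps30, in the large subunit despite its name, had 56.7, 45.1 and 46.6 CPM against 97.0, 90.6 and 99.9 CPM and changed by -0.95 ± 0.17 (adjusted p = 0.000472).

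Mrpl19, near the face between the subunits, and Mrpl47, near the exit of the peptide tunnel, complete the 6 largest falls. Mrpl19 had 74.2, 39.8 and 45.9 CPM with entinostat alone against 120.2, 99.98 and 111 CPM with DMSO alone, and changed by -1.05 ± 0.32 (edgeR adjusted p = 0.0155). Mrpl47 had 82.5, 43.8 and 46.4 CPM against 119.9, 98.0 and 111.5 CPM, and changed by -0.93 ± 0.27 (adjusted p = 0.0135). In neither gene did the groups overlap, and replicate 1 of the entinostat-alone group was the one nearest to the controls. Both calls were lost without replicate 2 or replicate 3 of that group, with adjusted p up to 0.0599 and 0.0549. Both genes also overlap exons of opposite-strand neighbours, Gcfc2 in Mrpl19 and Ndufb5 and Actl6a in Mrpl47.

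Of the 22 falls, 8 held whichever single library was left out: Mrpl12, Mrpl51, Mrps18b, Mrps2, Mrps27, Mrps30, Mrps34 and Mrps5. The count of falls was 42 without replicate 1, 8 without replicate 2 and 10 without replicate 3 of the entinostat-alone group, and 12 and 13 without replicates 1 and 3 of DMSO alone. Scaling by library size alone moved the median of all genes to 0.32, the members' median to -0.14, and the calls to 2 rises and 8 falls, so that the members still lay below the genes as a whole. In every library of the entinostat-alone group 32 members were lower than in every DMSO library and 2 were higher, against 26.4% and 33.8% of all genes.

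**Figure D3:**
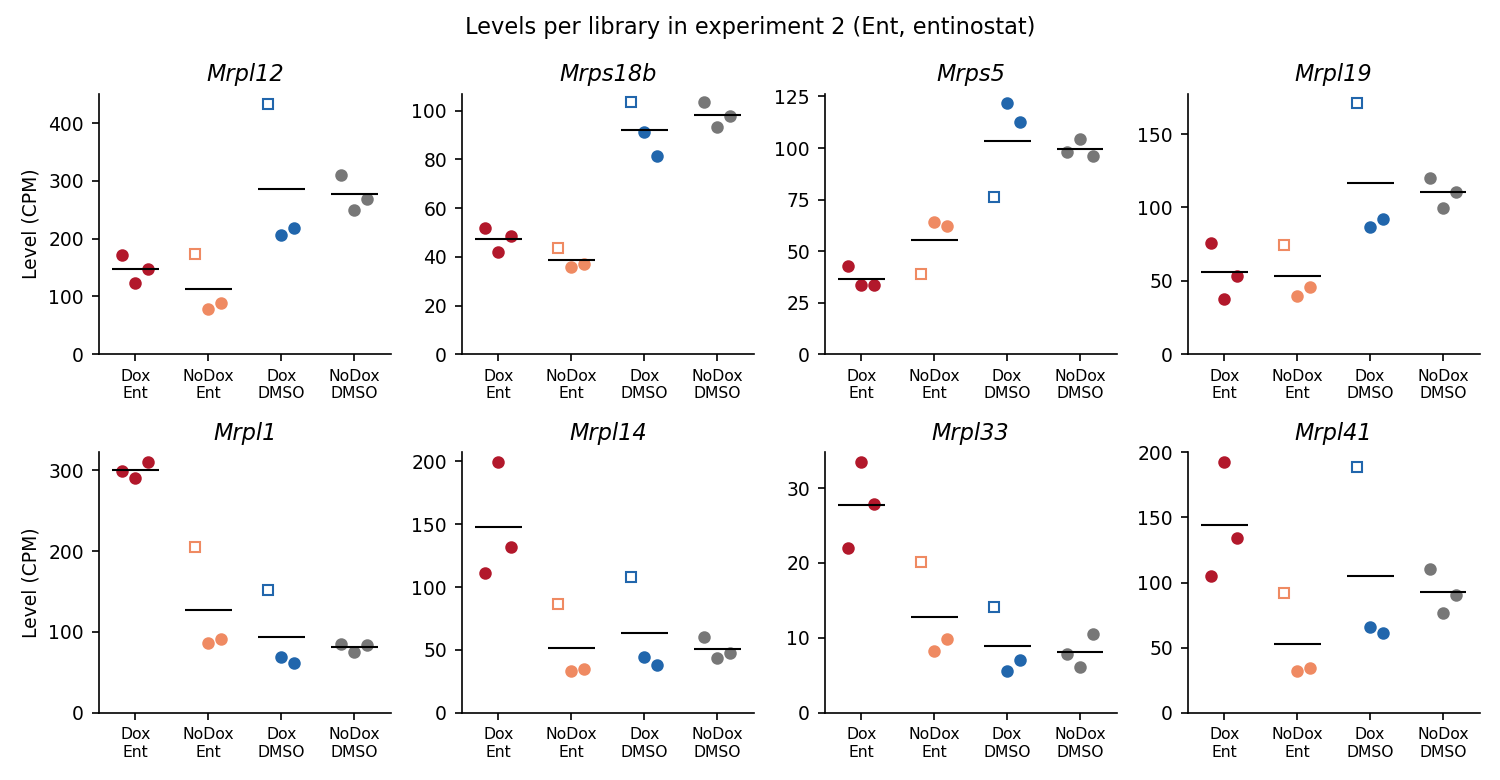
Levels (CPM, vertical axes) of 8 mitochondrial ribosomal protein genes in the 12 libraries of experiment 2, by group; points are libraries, lines group means and open squares the 2 libraries that stood apart. Mrpl12, Mrps18b, Mrps5 and Mrpl19 are lower in both entinostat groups than in their DMSO groups, while Mrpl1, Mrpl14 and Mrpl33 are highest with doxycycline plus entinostat.

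Entinostat given with doxycycline moved the genes both ways. Of the 77 members 23 fell and 8 rose, 29.9% and 10.4%, where 29.9% and 33.9% of all genes did. The median log2 fold change of the members was -0.10, that of all genes 0.14, and single members ran from -1.50 to 1.67. The genes that rose were Mrpl1, Mrpl14, Mrpl24, Mrpl33, Mrpl48, Mrps18c, Mrps21 and Mrps36. Without the 2 libraries the count of falls was again 23, that of rises was 36 (34.7% and 43.1% of all genes), and the members' median was 0.20. In this arm 23 members were lower and 8 higher in every entinostat library, against 30.5% and 35.4% of all genes.

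Mrps5, a protein at the messenger RNA entrance of the small subunit (chromosome 2, 127587222 to 127606829, plus strand), had the largest fall. It had 42.9, 33.6 and 33.4 CPM with doxycycline plus entinostat and 76.1, 122 and 112 CPM with doxycycline plus DMSO. Unlike most members it was lowest, not highest, in replicate 1 of the doxycycline plus DMSO group. The log2 fold change was -1.50 ± 0.22 (edgeR adjusted p = 0.000123), and -1.69 without the 2 libraries. Mrpl37, a mitochondria-specific large-subunit protein, had 72.7, 51.4 and 62.4 CPM against 121, 119 and 137 CPM, and Mrps2 in the small subunit had 29.7, 25.7 and 28.5 CPM against 45.6, 56.2 and 59.2 CPM. They changed by -1.02 ± 0.16 (adjusted p = 0.000147) and by -0.94 ± 0.15 (adjusted p = 0.000243), with no overlap in either. Mrps18b fell by 0.96 ± 0.15 (adjusted p = 0.0002), with 51.7, 42.0 and 48.6 CPM against 103.6, 91.4 and 81.5 CPM, and Mrps30 by 0.83 (adjusted p = 0.0009).

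Mrpl19 and Mrpl12 were called lower with doxycycline too, but less securely. Mrpl19 had 75.8, 37.9 and 53.5 CPM against 171, 86.6 and 92.3 CPM and changed by -1.06 ± 0.32 (edgeR adjusted p = 0.0105, and 0.0535 without replicate 2 of doxycycline plus entinostat). Mrpl12 had 172, 124 and 148 CPM against 433, 206 and 218 CPM, with no overlap. Its change of -0.95 ± 0.33 (adjusted p = 0.0231) was lost without replicate 1 of doxycycline plus DMSO or replicates 2 or 3 of doxycycline plus entinostat, with adjusted p up to 0.106. In the fit without both libraries it was -0.53 (adjusted p = 0.0034).

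The largest rise was that of Mrpl1, a protein of the mobile stalk near the site where tRNA leaves (chromosome 5, 96209493 to 96266727, plus strand). It had 299, 289.7 and 310.0 CPM with doxycycline plus entinostat against 152, 68.4 and 61.7 CPM with doxycycline plus DMSO. The 3 treated libraries lay close together and well above replicate 1 of the vehicle group, and the change was 1.67 ± 0.37 (edgeR adjusted p = 0.00167). Mrpl33, a small large-subunit protein and the least abundant member before treatment, had 21.9, 33.4 and 27.9 CPM against 14.1, 5.62 and 7.001 CPM, a change of 1.64 ± 0.39 (adjusted p = 0.0028). These were the 2 rises that held whichever library was left out. Mrpl33 shares 261 exon bases with Gm43809 on the same strand.

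The other 4 of the 6 largest rises were calls that depended on single libraries. Mrpl14, at the interface between the subunits, had 111, 199 and 132 CPM against 107.8, 44.1 and 37.7 CPM and changed by 1.22 ± 0.43 (edgeR adjusted p = 0.025). Mrpl48, in the central protuberance, had 141, 191 and 163 CPM against 124, 43.0 and 46.4 CPM and changed by 1.21 ± 0.42 (adjusted p = 0.0228). The bS18 protein gene Mrps18c had 20.01, 28.0 and 27.5 CPM against 17.4, 9.66 and 11.1 CPM and changed by 0.99 ± 0.33 (adjusted p = 0.0195). In none of these did the groups overlap, with the vehicle's replicate 1 next below the lowest treated library. Mrps36, the α-ketoglutarate dehydrogenase subunit, had 100.4, 134 and 117 CPM against 87.9, 52.9 and 45.7 CPM and changed by 0.91 ± 0.28 (adjusted p = 0.0127). Mrpl48 and Mrpl14 share exon bases with opposite-strand genes, Rab6a and Tmem63b. Mrps18c shares 250 exon bases with Gm43511 on the same strand. Without replicate 2 or 3 of doxycycline plus DMSO, or replicate 2 of doxycycline plus entinostat, 2 rises were left, and without replicate 1 of doxycycline plus DMSO 26 were.

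Of the 23 falls, 11 held in every such omission: Mrpl37, Mrpl38, Mrpl39, Mrpl9, Mrps15, Mrps18b, Mrps2, Mrps26, Mrps27, Mrps30 and Mrps5. The lowest count was 12, without replicate 2 of doxycycline plus entinostat, and 15 were left without its replicate 3 or without replicate 1 of doxycycline plus DMSO; leaving out replicate 1 of entinostat alone gave 13 rises. The 2 groups fitted alone gave 11 falls. With library size alone as scaling the median of all genes was 0.28 and that of the members 0.05, with 14 rises and 16 falls.

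The remaining members picked for their roles passed in neither entinostat comparison with all libraries. Mrps12, at the decoding site of the small subunit, had 39.8, 37.7 and 50.9 CPM with doxycycline plus entinostat and 57.7, 29.9 and 35.8 CPM with doxycycline plus DMSO. It had 44.6, 22.0 and 28.8 CPM with entinostat alone and 28.04, 26.7 and 32.1 CPM with DMSO alone, so the groups overlapped in both comparisons. Its changes were 0.06 ± 0.27 with doxycycline and 0.13 ± 0.27 without it. Mrps28, in the small subunit, changed by 0.01 ± 0.36 and -0.01 ± 0.36, Mrpl58 by 0.01 ± 0.31 and -0.16 ± 0.31, Mrpl55 by 0.37 ± 0.27 and -0.33 ± 0.27, and Mrpl11 by 0.11 ± 0.31 and -0.44 ± 0.31, in the same order. In the fit without the 2 libraries, all of these were called higher with doxycycline, and Mrps28, Mrpl58, Mrpl55 and Mrpl11 lower without it.

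The entinostat comparisons with and without doxycycline share no library, and 16 genes fell in both: Mrpl12, Mrpl19, Mrpl35, Mrpl37, Mrpl38, Mrpl39, Mrpl51, Mrps18b, Mrps2, Mrps25, Mrps26, Mrps27, Mrps30, Mrps34, Mrps35 and Mrps5. They are 72.7% of the 22 falls without doxycycline and 69.6% of the 23 with it, where the shared falls of all genes were 88.6% and 50.1%. Mrpl18, Mrpl22, Mrpl47, Mrpl49, Mrps6 and Mrps7 passed only in the comparison without doxycycline, and Mrpl36, Mrpl40, Mrpl43, Mrpl45, Mrpl9, Mrps15 and Mrps31 only in that with it, which does not show that they differ. Over the 77 genes the log2 fold changes had a Pearson r of 0.733 (rho 0.721) with all libraries and of 0.317 (rho 0.323) without the 2. In that fit 21 genes fell in both comparisons and 28 fell without doxycycline and rose with it.

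**Figure D4:**
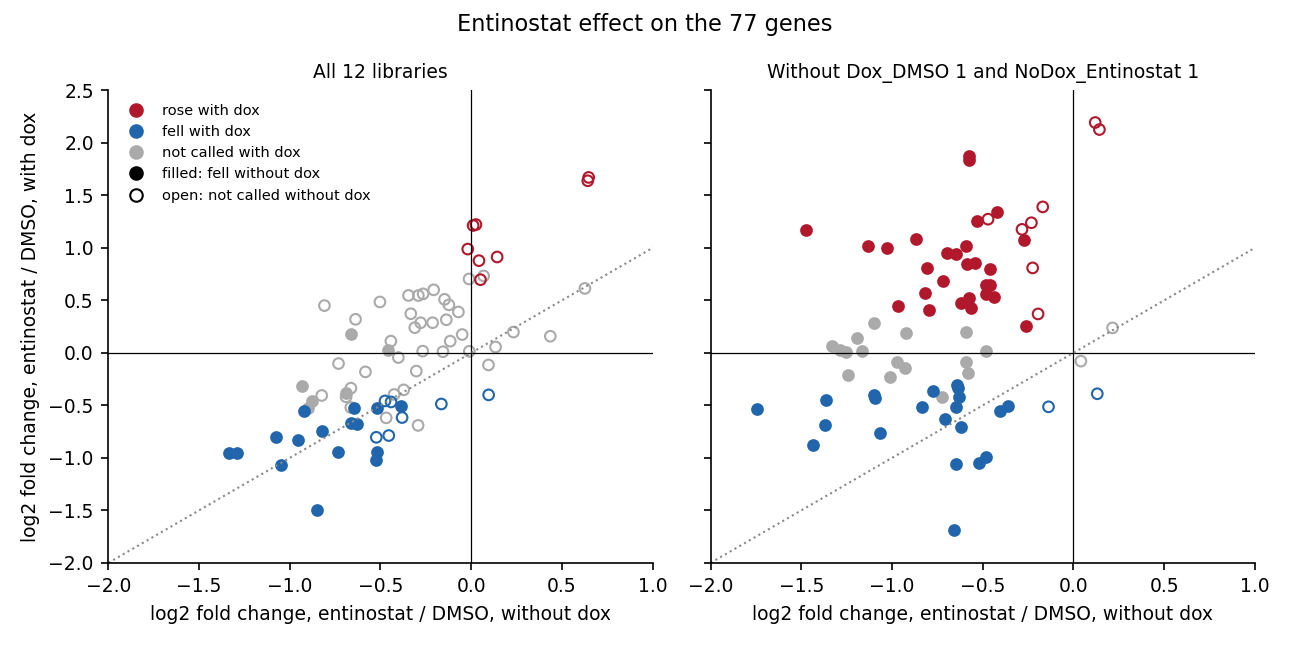
Log2 fold change with entinostat over DMSO of each of the 77 genes without doxycycline (horizontal axis) and with it (vertical axis), for all 12 libraries (left) and without the 2 that stood apart (right). Colours give the call with doxycycline, filled points fell without it, and the dotted line marks equal change; in the right panel most genes lie above the line, and 28 of them fell without doxycycline and rose with it.

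Set directly against each other, the entinostat-treated cultures held more of these transcripts with doxycycline than without. The summed level was 8437 ± 330 CPM with doxycycline plus entinostat and 5748 ± 1876 CPM with entinostat alone (SD, n = 3 each). Of the 77 genes 16 rose, 20.8%, and none fell, where 8.96% and 15.1% of all genes did; the median log2 fold change was 0.39 for the members and -0.08 for all genes. Among the falls, edgeR gave 3 members at an unadjusted p under 0.05, and DESeq2 and limma-voom called none; they called 22 and 21 rises. Leaving out the 2 libraries, 50 members rose and 4 fell, against 26.1% and 35.7% of all genes, and the members' median was 0.75. The members were higher in every doxycycline plus entinostat library for 25 genes and lower for 2, against 18.3% and 19.4% of all genes.

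Mrpl14 (chromosome 17, 45686322 to 45698495, plus strand) had the largest rise, with 111, 199 and 132 CPM with doxycycline plus entinostat and 86.7, 33.6 and 34.5 CPM with entinostat alone. Its log2 fold change was 1.51 ± 0.43 (edgeR adjusted p = 0.028). Mrpl41, a mitochondria-specific large-subunit protein (chromosome 2, 24974117 to 24975098, minus strand), had 105, 192 and 134 CPM against 91.7, 32.2 and 34.7 CPM and changed by 1.45 ± 0.47 (adjusted p = 0.0429). Mrpl1, with 205, 86.3 and 91.4 CPM in entinostat alone, changed by 1.23 ± 0.36 (adjusted p = 0.0305). In each, replicate 1 of entinostat alone was more than the other libraries of its group yet below all 3 with doxycycline.

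Mrpl32, whose product is matured by the m-AAA protease in yeast and mouse, had 336.5, 398 and 382 CPM with doxycycline plus entinostat and 266, 112 and 120.5 CPM with entinostat alone, a change of 1.16 ± 0.37 (edgeR adjusted p = 0.041). Mrps18c had 16.7, 6.69 and 9.30 CPM in entinostat alone and changed by 1.21 ± 0.33 (adjusted p = 0.0243), and Mrpl33, with 20.2, 8.22 and 9.89 CPM there, by 1.12 ± 0.38 (adjusted p = 0.0498). Mrps36 changed by 1.07 ± 0.28 (adjusted p = 0.0209) and the bL31 protein gene Mrpl55 by 0.86 ± 0.27 (adjusted p = 0.0372). Mrpl20, Mrpl22, Mrpl30, Mrpl49, Mrps11, Mrps17, Mrps21 and Mrps24 were the other calls. No call of the 16 held in every omission of a library: none was left without replicate 2 or 3 of entinostat alone or of doxycycline plus entinostat. There were 44 rises without replicate 1 of entinostat alone, 27 without replicate 1 of doxycycline plus DMSO, 10, 9 and 8 without replicates 1, 2 and 3 of DMSO alone, and 6 without replicate 1 of doxycycline plus entinostat.

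Whether entinostat acted differently with and without doxycycline was asked by the interaction, the entinostat change with doxycycline minus that without it. With all 12 libraries no member passed (0.166% of all genes were positive and 0.106% negative), with 3 positive and 2 negative at an unadjusted p under 0.05 in edgeR and none by DESeq2 or limma-voom. The median was 0.33 for the members and -0.09 for all genes. Without the 2 libraries 54 members were positive and 4 negative, against 21.5% and 30% of all genes, with a members' median of 1.04. Leaving out replicate 1 of entinostat alone gave 17 positive and 1 negative, and leaving out replicate 1 of doxycycline plus DMSO gave 19 positive and none negative.

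Mrpl41 had the widest difference in both fits, 1.26 ± 0.66 with all libraries (edgeR adjusted p = 0.33) and 2.64 ± 0.30 without the 2 (adjusted p = 7.79e-06). In the smaller fit it changed by 1.17 with entinostat in the presence of doxycycline and by -1.47 in its absence. Mrpl48 stood at 1.20 ± 0.59 with all libraries and 2.45 ± 0.22 without the 2, and Mrpl14 at 1.20 ± 0.61 and 2.42 ± 0.29. The 4 negative members of the smaller fit were Mrps5 (-1.03 ± 0.16), Mrpl37, Mrps31 and Mrps2, of which Mrps5, Mrpl37 and Mrps2 were among the 6 largest falls with doxycycline. Of the 12 members picked for their roles, Mrps30 alone did not pass in that fit (0.31 ± 0.18, adjusted p = 0.174). Cytosolic ribosomal protein genes were at 172400 to 217600 CPM in the doxycycline plus entinostat libraries and at 67920 to 80860 CPM in 5 of the other 7 libraries that remain, and the part of that difference in these values was not tested.

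**Figure D5:**
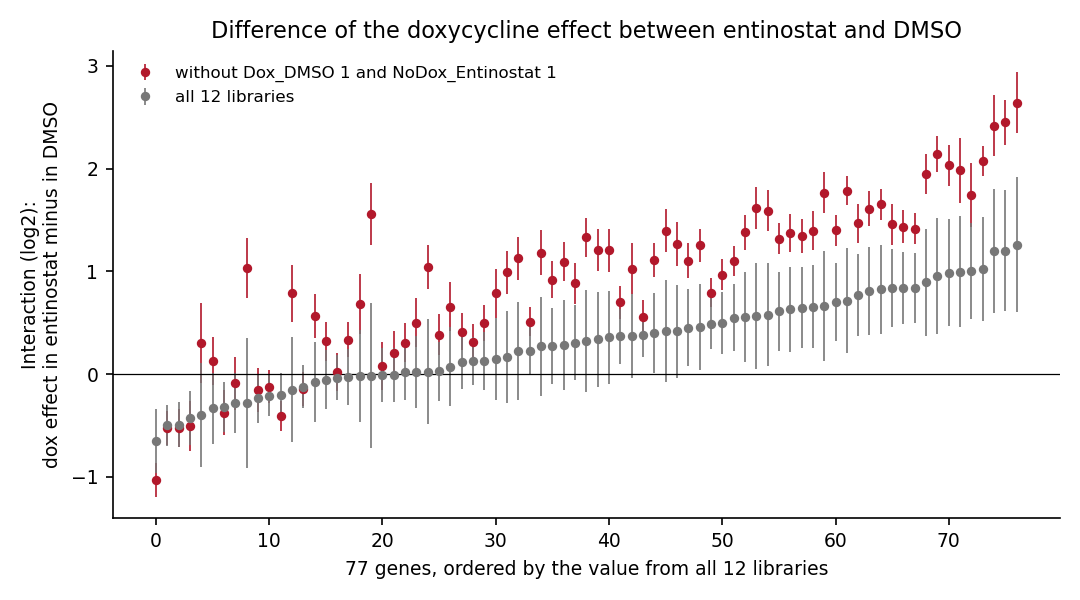
Entinostat change with doxycycline minus entinostat change without it (log2, with standard errors) for the 77 genes in order of the value from all 12 libraries. Grey marks all libraries, where no gene passed, and red the fit without the 2 libraries that stood apart, where 54 were positive and 4 negative.

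Called genes lay in both subunits. Without doxycycline, entinostat lowered 12 of the 50 large-subunit genes and 10 of the 26 small-subunit genes. These are 24% and 38.5%, where 16.9% of all genes fell. With doxycycline, 13 and 10 fell, 26% and 38.5%, and 5 and 2 rose, 10% and 7.69%. Of all genes 29.9% fell and 33.9% rose there, so only the falls of the small subunit exceeded the share. Without the 2 libraries, 43 and 22 fell without doxycycline (27.7% of all genes). With doxycycline again 13 and 10 fell while 23 and 12 rose, where 34.7% of all genes fell and 43.1% rose. By descent the counts with doxycycline were less alike: of the 46 genes with a bacterial counterpart 6 rose and 8 fell (median 0.04), and of the 30 without one 1 rose and 15 fell (median -0.44). In the fit without the 2 libraries 25 rose and 8 fell of the 46 (median 0.39), and 10 rose and 15 fell of the 30 (median -0.26). Between the entinostat groups, doxycycline raised 13 of the 46 and 2 of the 30, with medians of 0.58 and 0.24, where 8.96% of all genes rose. Without the 2 libraries it raised 32 and lowered 1 of the 46, and raised 17 and lowered 3 of the 30. In that fit 26.1% of all genes rose and 35.7% fell. Length ran alongside: of the 38 genes with longer transcripts 3 rose and 17 fell with doxycycline plus entinostat over its vehicle (median -0.40), and of the 39 shorter ones 5 rose and 6 fell (median 0.11). Without the 2 libraries these were 12 rises and 17 falls of the 38 and 24 rises and 6 falls of the 39. Spearman's rho of that change with length was -0.323 over the 77 genes, as a description. With a trend over transcript length and GC content removed from each library, the medians were -0.23 for the longer and -0.24 for the shorter genes, with 4 rises and 12 falls against 3 rises and 16 falls. By descent they were then -0.07 for the genes with a bacterial counterpart (6 rises and 13 falls) and -0.38 for those without (1 rise and 15 falls). With the trend removed, 38.9% of all genes rose and 27.1% fell. The difference by descent was itself not tested.

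The 24 genes with CCGGAAG in the promoter window and the 44 without it are set side by side, with no test of a difference. With entinostat alone 6 of the 24 and 12 of the 44 fell and none rose, where 16.9% of all genes fell and 30.3% rose. With doxycycline, entinostat raised 4 and lowered 5 of the 24, and raised 4 and lowered 14 of the 44. Of all genes 33.9% rose and 29.9% fell there. Without the 2 libraries 18 of the 24 and 39 of the 44 fell with entinostat alone (27.7% of all genes). With doxycycline 13 rose and 5 fell of the 24, and 21 rose and 14 fell of the 44 (43.1% and 34.7% of all genes). Of the promoters printed above, that of Mrpl48 belongs to a gene called higher with doxycycline plus entinostat, that of Mrpl22 to one called lower with entinostat alone, and those of Mrps18a and Mrpl58 to genes with no such call with all libraries (-0.31 and -0.16 with entinostat alone, 0.24 and 0.01 with doxycycline).

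Other genes that the mitochondrial ribosome needs were also called with entinostat, mostly lower; among all genes 16.9% fell and 30.3% rose without doxycycline, and 29.9% fell and 33.9% rose with it. Of 26 genes for its assembly and RNA modification, 12 fell and 1 rose without doxycycline, and 12 fell and 4 rose with it; without the 2 libraries 17 fell and 1 rose, and 12 fell and 8 rose. Rcc1l, an assembly factor, had 22.0 ± 0.62 CPM with entinostat alone and 52.5 ± 5.59 CPM with DMSO alone (log2 fold change -1.26 ± 0.17, edgeR adjusted p = 7.94e-05), and 15.3 ± 3.46 against 49.9 ± 4.39 CPM in the doxycycline arm (-1.71 ± 0.17, adjusted p = 7.73e-06). The methyltransferase gene Mrm3 changed by -1.33 and -1.71 in the same order, and Noa1, a GTPase of small-subunit assembly, by -1.09 and -2.09. Of 17 mitochondrial aminoacyl-tRNA synthetases 8 fell without doxycycline and 11 with it, and none rose (without the 2 libraries 8 fell and 1 rose, and 11 fell and 2 rose); Yars2 changed by -1.33 ± 0.23 (adjusted p = 0.000433) and -1.38 ± 0.23 (adjusted p = 0.000252). Translation factors gave 3 falls of 17 without doxycycline, close to the share of all genes, and 6 falls and 2 rises with it. The fit without the 2 libraries had 11 falls, and 6 falls and 5 rises. With all libraries and doxycycline, Gfm1 (elongation factor G), Tufm (elongation factor Tu) and Lrpprc, which stabilises mitochondrial messenger RNAs, changed by -1.72, -1.49 and -1.99.

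Genes of mitochondrial DNA upkeep and transcription were called as well, with 3 of 10 lower and 1 higher without doxycycline and 4 lower and 2 higher with it; without the 2 libraries 8 were lower and 1 higher, and 4 lower and 3 higher. The helicase gene Twnk changed by -0.99 and -1.62, while Primpol, a primase, rose by 0.85 and 0.83. The messenger RNAs that mitochondrial DNA itself encodes were not called by edgeR in any comparison of experiment 2 (0 of 11; the smallest adjusted p in the entinostat comparisons was 0.0759, for mt-Nd6 with doxycycline). In the fit without the 2 libraries 6 of the 11 rose with entinostat in the doxycycline arm (43.1% of all genes did), 8 rose with doxycycline in entinostat (26.1%) and 7 were positive in the interaction (21.5%); none fell in these 3, none was called with entinostat alone, and mt-Co3 rose in the DMSO arm. Of the 13 protein genes of mitochondrial DNA, 11 were tested in experiment 2. Their levels were uneven: in experiment 1 with doxycycline, mt-Co1 averaged 8573 CPM, mt-Co3 10.7 CPM and mt-Nd4l 0.520 CPM. Of 5 ribosomal protein genes with other names, Chchd1 rose in the doxycycline arm by 1.26 ± 0.50 (edgeR adjusted p = 0.0398) and Gadd45gip1 changed by -0.66 and -0.83, a fall in both.

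Most transcription factors and coactivators known to act on nuclear genes for mitochondria were lower with entinostat. Of 10 measured, 8 fell and 1 rose without doxycycline, and 9 fell and 1 rose with it, with the same counts in the fit without the 2 libraries. Gabpa, the DNA-binding subunit of GABP, had 79.6 ± 27.6 CPM with entinostat alone against 140.7 ± 9.22 CPM with DMSO alone (-0.82 ± 0.27, edgeR adjusted p = 0.0237), and 44.0 ± 0.74 against 125 ± 38.7 CPM in the doxycycline arm (-1.51 ± 0.27, adjusted p = 0.000474). Its partner Gabpb1 changed by -0.84 and -0.68, and Gabpb2 by -0.29 (adjusted p = 0.317) and -0.59 (adjusted p = 0.0318). Myc changed by -1.58 and -2.40, Yy1 by -0.94 and -1.40, Nrf1 by -0.65 and -0.48, and Esrra by -0.81 and -1.17. The coactivator genes Pprc1 and Ppargc1b changed by -1.50 and -1.72 and by -1.68 and -1.73. Ppargc1a was at 0 CPM in all DMSO libraries and averaged 0.790 and 0.839 CPM with entinostat without and with doxycycline, too low for a fold to be read.

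Doxycycline alone gave few calls among these genes without the replicate block and many more with it. In experiment 1, Gabpa had 165 ± 5.17 CPM with doxycycline against 216 ± 9.75 CPM without it (-0.39 ± 0.07, edgeR adjusted p = 0.016), the 1 call among 9 regulators tested without the block. The paired fit called 3 regulators higher (Gabpb1, Nrf1 and Ppargc1b) and 3 lower (Gabpa, Pprc1 and Esrra), with changes between -0.39 and 0.31. It also called 13 assembly genes higher and 3 lower of 26, 9 and 2 of 17 translation factors, 8 and 2 of 17 synthetases, and 5 and 1 of 10 genes of mitochondrial DNA upkeep, where 26.1% and 24.7% of all genes were called. Without the block, Rpusd4, a pseudouridine synthase acting on mitochondrial RNA, fell by 0.45, and Eral1, a chaperone of the small ribosomal RNA, rose by 0.46, as did Rpusd3 by 0.48. In the DMSO arm of experiment 2 edgeR called no gene of these lists with all libraries. Without the 2 libraries, 3 assembly genes rose and 2 fell, and 3 regulators rose and 1 fell. Of synthetases 3 rose and 1 fell, of mitochondrial DNA upkeep genes 2 rose and 2 fell, and 1 translation factor fell. Among all genes 17.4% rose and 13.9% fell. Between the entinostat groups, Myc and Gabpa fell with doxycycline, with changes of -0.83 (edgeR adjusted p = 0.036) and -0.86 (adjusted p = 0.0389). They were the 2 calls among 10 regulators, where 15.1% of all genes fell and 8.96% rose. Of 17 translation factors 2 rose and 3 fell there, and of 26 assembly genes 1 rose and 2 fell. Of 17 synthetases 2 fell, and of 10 upkeep genes 1 rose and 1 fell.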

How the data were processed

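RNA was measured in 18 libraries of polyA RNA in 6 groups of 3. The authors deposited raw counts per gene in 1 table for each of 2 experiments, per the labels. The submitters' processing notes name bcl2fastq 2.17.1.14, STAR, DESeq2 and build mm10; the read counter and annotation are not given in the sources used here. The table of experiment 1 holds no value under 1, and 3543 genes are at 1 in all its libraries. The library kit (TruSeq RNA v2, per the labels' protocols) does not mark strand, and 27 members share exon bases with an opposite-strand gene.

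The counts were tested gene by gene with edgeR 4.0.16 (R 4.3.3): TMM factors, filterByExpr, quasi-likelihood F test on group means, two-sided, Benjamini-Hochberg adjustment over all genes tested, threshold 0.05. The standard error of a log2 fold change is its size divided by the square root of that F. Common biological coefficients of variation were 0.194 and 0.242. CPM use the TMM library sizes. Gene positions and lengths come from GENCODE M21, promoters from RefSeq.

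In experiment 1, same-numbered replicates of the groups deviated together (correlations of deviations from the group means 0.829, 0.724 and 0.313, all over the limit of 0.1), so the fit with the replicate number as a block is given beside its results. Among the groups compared in experiment 2, those given DMSO passed that limit in all 3 pairs (0.334, 0.267 and 0.102). Those without doxycycline passed it in replicates 1 and 2 (0.336 and 0.315) and fell just short in replicate 3 (0.096). The other groups compared were under the limit in every pair. In DMSO the block gave no call among the members, as the fit without it did. Counts with the block for the entinostat comparisons are given below.

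Alternatives were DESeq2 1.42.0, limma-voom (limma 3.58.1), other scalings and filters, a length and GC trend removed, the replicate block, each library left out, and the 2 libraries that stood apart left out. Named members are the 6 largest called changes per direction and comparison and 12 members with roles of their own; of other lists, up to 3 called genes with the smallest adjusted p, and every regulator. Members, lists and the 2 libraries were chosen with earlier results of these data known. The scripts were tested on simulated data. Reads carry no molecular identifiers, so counting error understates the error of a level. The p-values measure the spread between cultures of 1 line.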

Additional observations from a re-analysis of the deposited data

How the results depend on the processing

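In each comparison of experiment 2, leaving out the 2 libraries that stood apart changed a count of members called. Omissions of other libraries and other settings changed counts too, as given below. Without the 2 libraries that stood apart, doxycycline gave 16 falls in DMSO, and 50 rises and 4 falls in entinostat. Entinostat gave 65 falls without doxycycline, and 36 rises and 23 falls with it. The interaction gave 54 rises and 4 falls. Every call among members with all 12 libraries (16 rises for doxycycline in entinostat, 22 falls for entinostat without doxycycline, 8 rises and 23 falls with it) was kept in that fit. With 3 libraries a group and a biological coefficient of variation of 0.242, small changes were often not detectable.

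With the replicate block, experiment 1 gave 35 rises and 9 falls. In experiment 2 the block gave 37 rises and 4 falls for doxycycline in entinostat. For entinostat it gave 40 falls without doxycycline and 18 rises with it, where the count of falls is not given here. Only 9 of 18 same-numbered pairs of libraries in experiment 2 correlated over 0.1, though all 12 libraries correlated best with a library of their own number. Removing a length and GC trend gave 3 falls in experiment 1 and 1 fall in DMSO, and no rises there. Doxycycline in entinostat then gave 18 rises and 6 falls. Entinostat gave 3 rises and 25 falls without doxycycline, and 7 rises and 28 falls with it. Trend removal together with the block gave 39 rises and 13 falls in experiment 1, and 2 rises and 2 falls in DMSO. Doxycycline in entinostat gave 32 rises and 9 falls in that fit. Entinostat gave 3 rises and 40 falls without doxycycline, and 14 rises with it, where the count of falls is again not given here. Library size alone gave 14 rises and 5 falls for doxycycline in entinostat. For entinostat the counts were 2 rises and 8 falls without doxycycline, and 14 rises and 16 falls with it. DESeq2 gave 1 rise and 2 falls in experiment 1. With no filter there was 1 fall for doxycycline in entinostat. With a filter of 1 CPM in 3 libraries 15 members fell for entinostat with doxycycline, and with the 2 groups alone 11 did. The cause of these differences was not tested.

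Leaving out 1 library at a time, experiment 1 gave 0 rises and 0 to 1 falls, DMSO 0 rises and 0 to 2 falls, doxycycline in entinostat 0 to 44 rises and 0 to 3 falls, entinostat without doxycycline 0 rises and 8 to 42 falls, entinostat with it 2 to 26 rises and 12 to 24 falls, and the interaction 0 to 19 rises and 0 to 1 falls. An omission leaves 2 libraries in a group, and the spread is pooled over groups.

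The sign turned in many members for doxycycline in DMSO, where 57 were positive with all libraries and 13 without the 2. Among results of named members, 3 were counted as reversed. Mrpl11 with doxycycline in DMSO was -0.37 without the 2 libraries and 0.09 with all. Mrps28 with entinostat and doxycycline was -0.29 with the trend removed and the block, and 0.01 in the reported fit. Without the 2 libraries Mrps28 was called higher there. Mrps12 in the interaction was 0.57 without the 2 libraries and -0.08 with all. For named members, the other settings gave 819 values on the same side of the threshold and in the same direction, 57 that passed only there, 11 that passed only with the reported fit and 43 that moved; omissions of 1 library gave 820, 22, 70 and 60.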

Other observations

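Many mitochondrial ribosomal protein genes start close to another gene that points the other way. Of the 77 genes 28, 36.4%, had a protein-coding gene on the opposite strand whose start lay within 1000 bases in a head-to-head arrangement (GENCODE M21), against 9.13% of 21951 protein-coding genes. Those 21951 include genes not tested here, while all 77 were tested, and a share among tested genes alone is not given. The pairs below were picked after their values were seen. Mrpl46 and Mrps11, both members, start 30 bases apart; between the entinostat groups with and without doxycycline they changed by 0.53 ± 0.34 (adjusted p = 0.246) and by 1.03 ± 0.25 (adjusted p = 0.0151).

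Some neighbours changed alike and some did not. Mrps27 and Ptcd2, which start 81 bases apart, changed by -0.66 (adjusted p = 0.0107) and -0.87 (adjusted p = 0.00141) with entinostat without doxycycline. Mrps34 and Eme2, 29 bases apart, changed by -1.07 (adjusted p = 0.00477) and -0.73 (adjusted p = 0.0103) in that comparison. With doxycycline, Mrps5 changed by -1.50 (adjusted p = 0.000123) and Zfp661, 128 bases away, by 0.78 (adjusted p = 0.0039). Mrps12 changed by 0.06 (adjusted p = 0.865) there, while Sars2, the mitochondrial seryl-tRNA synthetase gene 232 bases away, changed by -1.14 (adjusted p = 0.000347). Mrpl43 and the helicase gene Twnk, 116 bases apart, changed by -0.47 (adjusted p = 0.0481) and -1.62 (adjusted p = 3.72e-05). Mrps18c rose by 0.99 (adjusted p = 0.0195) and Helq, 29 bases away, changed by -0.10 (adjusted p = 0.533). Between the entinostat groups, Mrpl14 rose by 1.51 (adjusted p = 0.028) with doxycycline and Tmem63b, 63 bases away, changed by 0.02 (adjusted p = 0.939). Mrpl41 and Pnpla7, which start 935 bases apart, changed in opposite directions there, by 1.45 (adjusted p = 0.0429) and -0.80 (adjusted p = 0.0255). The differences within pairs were not tested, and reads from overlapping ends of such genes cannot be assigned to a strand.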
